A study of Mus musculus with 8 samples.

Results

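Inflammasomes and the interleukin-1 family were described through 10 genes: Nlrp3, Pycard, Casp1, Gsdmd, Il1b, Il18, Il33, Il1r1, Il1rl1 and Il1rap. They were chosen by name, as rows of a deposited table of 55487 mouse genes measured in heart RNA. Of the 10, 7 had enough reads to be tested and 3 (Nlrp3, Il1b and Il18) did not. The libraries came from db/db mice, which lack a working long form of the leptin receptor and develop obesity and diabetes. One group of 4 libraries was from db/db mice given vehicle. The other group of 4 was from db/db mice given DIZE. This abbreviation is read as diminazene aceturate, used against protozoa, and the series' title speaks of activating angiotensin-converting enzyme 2. All libraries shared the db/db background and there was no non-diabetic group. The sources used here give no dose, duration, age, sex or heart chamber. They do not say whether each library was a separate animal, so p-values measure only the spread between these libraries, which may be technical.

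An inflammasome is a protein assembly in which a sensor such as NLRP3 recruits the adaptor ASC, which activates the protease caspase-1. Caspase-1 cuts the precursors of interleukin-1 beta and interleukin-18 into active cytokines and cuts gasdermin D, whose freed part forms pores in the plasma membrane. Interleukin-33, a relative of these cytokines, is stored in the nucleus of stromal and endothelial cells and is active without caspase-1. In the heart, interleukin-1 is known for its part in inflammation after injury, and interleukin-33 for signalling through the receptor ST2. Several steps of the pathway are set by protein cutting, which read counts do not measure.

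Total counts were 7447664 to 10161623 per library. Levels are given as CPM, the read count relative to all reads that a library had in tested genes, with a TMM scaling factor, so 1 read was worth 0.0975 to 0.134 CPM. Cardiomyocyte markers were abundant in all 8 libraries, with a sum of 29825 to 51942 CPM over 9 genes, lowest in vehicle 1. Some libraries stood apart. Vehicle 1 had 824 CPM of 5 atrial markers and 785 CPM of 13 macrophage markers, against at most 328 and 569 CPM in the other libraries. It also differed most over all tested genes, by chi-square per degree of freedom between paired libraries, where a larger value is less alike. Pairs with vehicle 1 had 24.8 to 52.3, beside 5.54 to 22.5 for all other pairs. What set vehicle 1 apart was not tested. Vehicle 4 had 3280 CPM of 23 interferon response genes, against 261 to 611 CPM in the others. Vehicle 2 had 1785 CPM of 7 liver transcripts, against 6.57 to 27.3 CPM. In bulk heart RNA, fewer cells of a type and less RNA per cell cannot be told apart.

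None of the 7 tested members passed the test of DIZE against vehicle, and all 7 had lower fitted values in DIZE. Over all 13648 tested genes, 0.0366% were called (edgeR quasi-likelihood fit, Benjamini-Hochberg adjusted p under 0.05), so 0 of 7 is near that background. At an unadjusted p under 0.05 there were 3 of the 7, all lower (Il33, Il1rap and Pycard), beside 19.4% of all tested genes in either direction, 10.3% lower and 9.11% higher. That count was 2 without vehicle 1 or without DIZE 2, 6 without vehicle 2, 4 without vehicle 3 or without vehicle 4, and 1 without both vehicle 1 and vehicle 4. It was 0 with the summed level of atrial or of macrophage markers as a covariate and 3 with that of interferon response genes, all chosen after the values were seen. The share of all tested genes at that p moved as well. It was 16.4% without vehicle 1, 18.2% without DIZE 2, 22.7% without vehicle 2, 16.2% without vehicle 3 and 18.2% without vehicle 4. That share was 11.7% without both vehicle 1 and vehicle 4, and 11.6%, 8.40% and 16.5% with the atrial, macrophage and interferon covariates. The median log2 fold change of the 7 tested members was -0.52, beside -0.01 over all tested genes, of which 51.8% had values below 0. The members' median was -0.33 without vehicle 1 and -0.67 without vehicle 4, and -0.34, -0.17 and -0.61 with the atrial, macrophage and interferon covariates. By DESeq2 and by limma-voom none of the 7 passed either. At an unadjusted p under 0.05 there were 3 and 2 of them, beside 19.5% and 23.9% of all tested genes. All 7 stayed below 0 without vehicle 1 and without vehicle 4, but only 5 did without both.

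**Figure D1:**
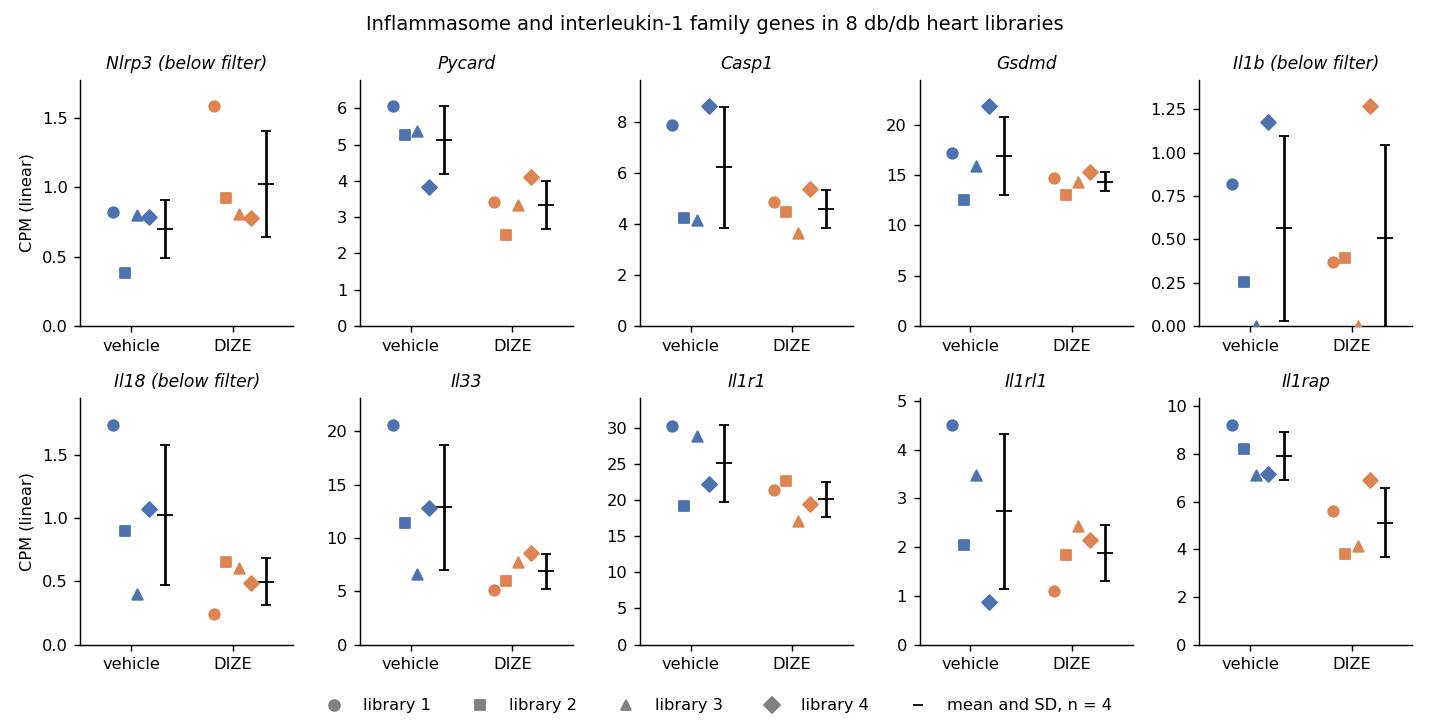
CPM of each member on linear axes, vehicle in blue and DIZE in orange, 1 symbol shape per library number within a group, with the mean and SD of 4 libraries in black (the SD of Il1b in DIZE is cut at 0). Il1rap is the 1 tested member whose groups do not overlap, and vehicle 1 is the highest library for 5 of the 7 tested members.

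Among the inflammasome genes, the sensor was scarce and the other parts were measurable. Nlrp3 (ENSMUSG00000032691, chromosome 11 from 59541568 to 59566956) had 61 reads in all 8 libraries together. Its level was 0.821, 0.385, 0.805 and 0.785 CPM in vehicle 1 to 4 and 1.59, 0.921, 0.808 and 0.780 CPM in DIZE 1 to 4. The groups overlapped. DIZE 1 and DIZE 2 lay above all vehicle libraries, DIZE 1 farthest, and DIZE 3 and DIZE 4 lay within the vehicle range. Nlrp3 had a mean of 0.699 ± 0.210 CPM in vehicle and 1.02 ± 0.380 CPM in DIZE (SD, n = 4), a difference of 0.325 CPM that did not pass (exact two-sided permutation test, p = 0.229, adjusted over the 3 scarce members p = 0.343; the smallest p the design allows is 0.0286). Without DIZE 1 the difference was 0.138 CPM.

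Pycard (ENSMUSG00000030793, chromosome 7 from 127989708 to 127993867) encodes the adaptor ASC. Its level was 6.05, 5.26, 5.36 and 3.83 CPM in the vehicle libraries and 3.42, 2.50, 3.33 and 4.095 CPM in the DIZE libraries. All DIZE libraries lay below vehicle 1 to 3, and vehicle 4 lay within the DIZE range. The Pycard means were 5.13 ± 0.936 in vehicle and 3.34 ± 0.654 in DIZE, in CPM. The log2 fold change was -0.61 with an SE of 0.23 (edgeR adjusted p = 0.186). Leaving out single libraries gave log2 values of -0.73 to -0.50.

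Casp1 (ENSMUSG00000025888, chromosome 9 from 5298517 to 5307265) encodes caspase-1. Its level was 7.90, 4.23, 4.16 and 8.63 CPM in the vehicle libraries and 4.88, 4.47, 3.64 and 5.36 CPM in the DIZE libraries. Vehicle 1 and vehicle 4 were high, while vehicle 2 and vehicle 3 lay inside the DIZE range. Casp1 had 6.23 ± 2.37 and 4.59 ± 0.731 CPM (log2 -0.46 ± 0.27 SE, edgeR adjusted p = 0.375). Its log2 value was -0.26 without vehicle 4 and 0.13 without both vehicle 1 and vehicle 4. With the trend over GC content and gene length removed it was -0.19.

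Gsdmd (ENSMUSG00000022575, chromosome 15 from 75862327 to 75867408) encodes gasdermin D, the pore-forming target of caspase-1. Its level was 17.2, 12.6, 15.96 and 21.9 CPM in vehicle and 14.8, 13.0, 14.35 and 15.3 CPM in DIZE. The DIZE libraries lay close together inside the vehicle range, and vehicle 4 was the highest library. Gsdmd had 16.9 ± 3.85 and 14.4 ± 0.975 CPM (log2 -0.24 ± 0.17 SE, edgeR adjusted p = 0.451). Its log2 value was -0.09 without vehicle 4 and 0.01 without both vehicle 1 and vehicle 4.

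The high vehicle libraries of Casp1 and Gsdmd were compared with the interferon response genes, since Casp1 is a known interferon-inducible gene. The summed level of 23 such genes was 587, 352, 303 and 3280 CPM in vehicle 1 to 4 and 611, 417, 261 and 557 CPM in DIZE 1 to 4. The library with the highest sum, vehicle 4, was also highest for Casp1 and for Gsdmd. The library with the lowest sum, DIZE 3, was lowest for Casp1, whereas Gsdmd was lowest in vehicle 2. DIZE 1 had a higher sum than vehicle 1 but a lower level of Casp1. Of 22 tested interferon genes all had lower values in DIZE and 0 were called, with a median log2 of -1.14, or -0.01 without vehicle 4. With the summed level as a covariate, chosen after the values were seen, Casp1 had log2 -0.22 and Gsdmd -0.11. The part of the interferon genes in these values was not otherwise tested.

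The 2 classical substrates of caspase-1 among the cytokines were near the limit of detection. Il1b (ENSMUSG00000027398, chromosome 2 from 129364570 to 129371139), the gene of interleukin-1 beta, had 41 reads in all libraries together. Its level was 0.821, 0.257, 0 and 1.18 CPM in vehicle and 0.366, 0.395, 0 and 1.27 CPM in DIZE. No read was counted in vehicle 3 and DIZE 3, which allows up to 0.402 and 0.303 CPM there, a limit of 3 reads that covers counting error only. The Il1b means were 0.564 ± 0.534 in vehicle and 0.507 ± 0.538 in DIZE, in CPM, and the groups covered the same range (exact two-sided permutation test, p = 0.971). The sign of the difference turned without vehicle 1, vehicle 4 or DIZE 3.

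Il18 (ENSMUSG00000039217, chromosome 9 from 50554827 to 50581840), the gene of interleukin-18, had 38 reads in vehicle and 18 in DIZE. Its level was 1.74, 0.898, 0.402 and 1.08 CPM in vehicle and 0.244, 0.658, 0.606 and 0.488 CPM in DIZE. Vehicle 1, 2 and 4 lay above all DIZE libraries, and vehicle 3 lay within the DIZE range. Il18 had 1.03 ± 0.555 and 0.499 ± 0.184 CPM, a difference of -0.532 CPM that did not pass (exact two-sided permutation test, p = 0.114, adjusted p = 0.343). The difference was -0.294 CPM without vehicle 1 (exact permutation p = 0.229, unadjusted) and -0.741 CPM without vehicle 3 (exact permutation p = 0.0286, unadjusted). Leaving out vehicle 3 removed the only overlap of the groups, so that p is the smallest the remaining libraries allow.

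Il33 (ENSMUSG00000024810, chromosome 19 from 29925114 to 29960718) had the largest fitted difference of the 7 tested members. Its level was 20.6, 11.4, 6.57 and 12.8 CPM in vehicle and 5.13, 5.92, 7.78 and 8.58 CPM in DIZE. Vehicle 1 was far above the rest, and vehicle 3 lay inside the DIZE range. The Il33 means were 12.9 ± 5.83 in vehicle and 6.85 ± 1.601 in DIZE, in CPM (log2 -0.91 ± 0.30 SE, edgeR adjusted p = 0.160). Its log2 value was -0.58 without vehicle 1 and -0.38 without both vehicle 1 and vehicle 4. Within the libraries whose titles hold the letters db (vehicle 1, vehicle 2, DIZE 1 and DIZE 2) it was -1.53. Within the others (vehicle 3, vehicle 4, DIZE 3 and DIZE 4) it was -0.27. The first set includes vehicle 1, so these values do not isolate the title form.

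Il33 was set beside the atrial markers, since vehicle 1 was highest for both. The sum of the 5 markers was 824, 87.5, 35.7 and 328 CPM in vehicle 1 to 4 and 24.2, 13.6, 67.6 and 130.5 CPM in DIZE 1 to 4. Within vehicle, Il33 and the atrial sum both ran from vehicle 1 through vehicle 4 and vehicle 2 to vehicle 3. Within DIZE, both were highest in DIZE 4, then in DIZE 3, and DIZE 1 and DIZE 2 were in opposite order. Across groups the order differed, as DIZE 4 had a higher atrial sum than vehicle 2 but less Il33. The 4 tested atrial markers all had lower values in DIZE (median log2 -2.76, or -1.55 without vehicle 1) and none was called. With the atrial sum as a covariate, chosen after the values were seen, Il33 had log2 -0.26 ± 0.21 SE and Casp1 -0.04. The other tested members had log2 -0.50 (Pycard), -0.08 (Gsdmd), -0.34 (Il1r1), -0.34 (Il1rl1) and -0.44 (Il1rap) in that fit. Adipocyte markers, 6 genes too scarce to be tested, also marked vehicle 1, 2 and 4, with sums of 10.8, 8.59, 0.134 and 3.92 CPM in vehicle 1 to 4 and 1.10, 0.132, 0.101 and 1.66 CPM in DIZE 1 to 4. Their part in the Il33 and Il18 values was not tested.

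**Figure D2:**
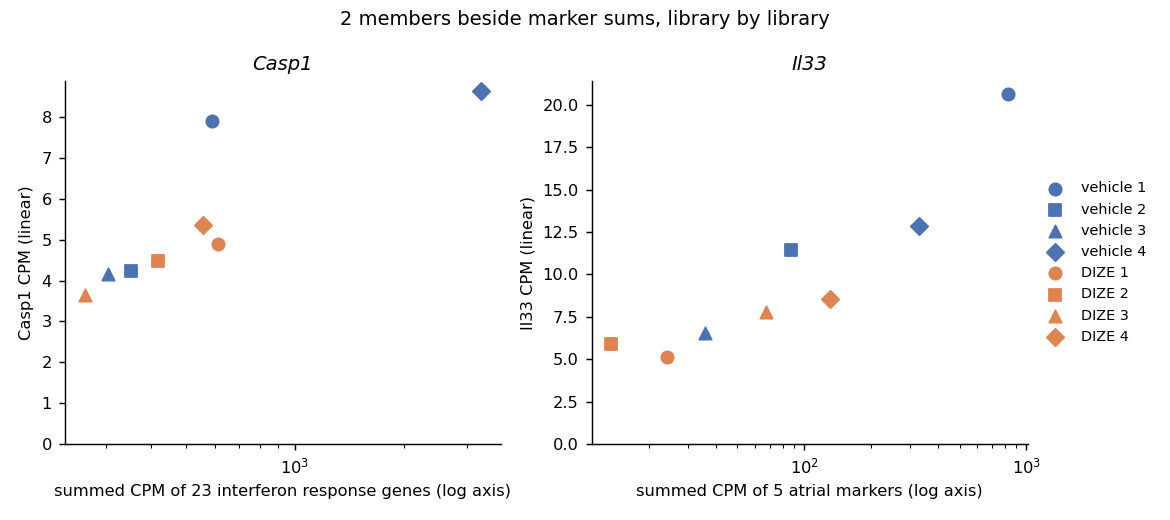
Each point is 1 library, vehicle in blue and DIZE in orange. The left panel plots Casp1 (CPM, linear) against the summed CPM of interferon response genes, and the right panel Il33 against the summed CPM of atrial markers, both sums on log axes. Vehicle 4 stands apart at 3280 CPM on the left, and vehicle 1 at 824 CPM on the right.

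RefSeq lists 2 transcription starts for Il33, and the gene-level count adds the transcripts of both. The 250 bases before each start are shown because Il33 differed most and the count cannot say which start was used. They are on the plus strand of GRCm38.p6, at chr19:29924863-29925112 and chr19:29945540-29945789, and capitals mark TATAAA, the core of the TATA box that positions transcription starts.
Il33, first start: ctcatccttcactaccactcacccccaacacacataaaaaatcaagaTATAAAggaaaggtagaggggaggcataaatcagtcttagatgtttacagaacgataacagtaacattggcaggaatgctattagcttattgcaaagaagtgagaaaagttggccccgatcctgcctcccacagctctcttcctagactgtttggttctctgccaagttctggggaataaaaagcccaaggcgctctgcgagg
Il33, second start: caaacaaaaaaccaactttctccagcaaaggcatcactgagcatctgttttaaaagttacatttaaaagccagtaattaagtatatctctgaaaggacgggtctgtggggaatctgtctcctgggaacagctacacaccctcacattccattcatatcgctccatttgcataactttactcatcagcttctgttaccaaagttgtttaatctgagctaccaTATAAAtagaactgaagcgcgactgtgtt
Relative to the start, the match begins at -29 for the second start and at -203 for the first. On either strand TATAAA occurred in 12.4% of the 32851 promoter windows of this length, and also in those of Il1b, at -31, and Il18, at -175 on the opposite strand. In 13 windows of 9 members there was no match to the NF-kB motif (GGG, any 2 bases, then TTTCC), the STAT motif TTCNNNGAA (GAS) or the interferon-response core (GAAA, any 2 bases, then GAAA) on either strand. Gsdmd had no window and was not searched. These motifs occurred in 1.41%, 7.02% and 2.98% of all windows. With shares this low, no match in 13 windows says little about the members, and sites farther from the start were not searched. The TATAAA search was chosen after the first 3 gave no match.

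The receptors came next. Il1r1 (ENSMUSG00000026072, chromosome 1 from 40225080 to 40317257) encodes the receptor for interleukin-1 and was the member with the most reads, 1600 in all. Its level was 30.3, 19.1, 28.8 and 22.2 CPM in vehicle and 21.4, 22.6, 17.1 and 19.4 CPM in DIZE. Vehicle 1 and vehicle 3 lay above all DIZE libraries, and vehicle 2 and vehicle 4 among them. Il1r1 had 25.1 ± 5.33 and 20.1 ± 2.42 CPM (log2 -0.32 ± 0.17 SE, edgeR adjusted p = 0.311).

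Il1rap (ENSMUSG00000022514, chromosome 16 from 26581704 to 26730117) encodes the accessory chain that the interleukin-1 and interleukin-33 receptors share. Its level was 9.24, 8.21, 7.11 and 7.16 CPM in vehicle and 5.62, 3.82, 4.14 and 6.92 CPM in DIZE. It was the 1 of 7 tested members whose groups did not overlap, where 12.4% of all tested genes had no overlap (5.26% with DIZE lower, 7.17% with DIZE higher), and the gap between vehicle 3 and DIZE 4 was narrow. Il1rap had 7.93 ± 1.01 and 5.12 ± 1.43 CPM (log2 -0.62 ± 0.22 SE, edgeR adjusted p = 0.169). Leaving out single libraries gave -0.80 to -0.51. It was -0.61 without vehicle 2, the library with liver transcripts. Il1rap is also known to be expressed in liver, and the part of liver RNA in its values was not otherwise tested.

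Il1rl1 (ENSMUSG00000026069, chromosome 1 from 40429570 to 40465415) encodes ST2, the interleukin-33 receptor, in a membrane form and a shorter secreted form that the gene-level count does not separate. Its level was 4.52, 2.05, 3.49 and 0.883 CPM in vehicle and 1.10, 1.84, 2.43 and 2.15 CPM in DIZE. Vehicle held both the highest and the lowest library, and the DIZE libraries lay between them. Il1rl1 had 2.73 ± 1.59 and 1.88 ± 0.571 CPM (log2 -0.52 ± 0.44 SE, edgeR adjusted p = 0.541). Its log2 value was -0.13 without vehicle 1 and -0.83 without vehicle 4, 0.14 within the libraries without db in the title, and 0.28 by limma-voom with library weights.

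Mast cells carry ST2, so their markers were read beside Il1rl1. The sum of 8 mast cell markers was 67.2, 29.6, 40.8 and 38.5 CPM in vehicle 1 to 4 and 23.1, 16.2, 39.0 and 38.7 CPM in DIZE 1 to 4. All 6 tested mast cell markers had lower values in DIZE (median log2 -0.57, or -0.22 without vehicle 1), and none was called. Vehicle 4, the lowest library for Il1rl1, was not low for these markers. The type 2 lymphoid genes Il5, with 13 reads in all, and Il13, with 0, were too scarce to be read. The part of mast cells in the Il1rl1 values was not tested.

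**Figure D3:**
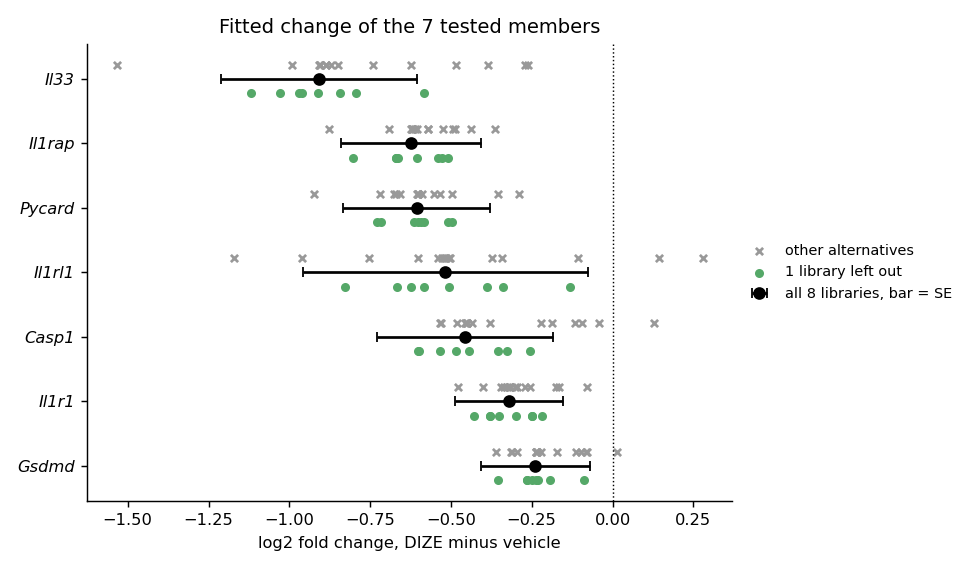
Log2 fold change of DIZE against vehicle for the 7 tested members. Black points and bars are the value and SE with all 8 libraries, green points each value with 1 library left out, and grey crosses the other alternatives. All green points lie below 0, while 1 or more crosses lie above 0 for Casp1, Gsdmd and Il1rl1.

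Levels were compared between genes as CPM per kb of exon, over all 8 libraries. Gsdmd was highest, with 6.04 ± 0.410 in DIZE and 7.11 ± 1.62 in vehicle (SD, n = 4). Casp1, Il1r1 and Il33 followed with overall means of 3.61, 3.55 and 3.42 CPM per kb, and these neighbours did not differ beyond their spread. Pycard (1.11), Il18 (0.742) and Il1rap (0.574) were next, and their ranges over libraries overlapped from one to the next. Il1rl1 (0.334), Il1b (0.281) and Nlrp3 (0.212) were the lowest. The pore gene, the protease gene and the interleukin-1 receptor gene thus had more RNA per length than the sensor gene and Il1b. Lengths are those of all annotated exons together, 3800 bases for Pycard and 11360 for Il1rap, and long rarely used exons lower a gene's value.

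**Figure D4:**
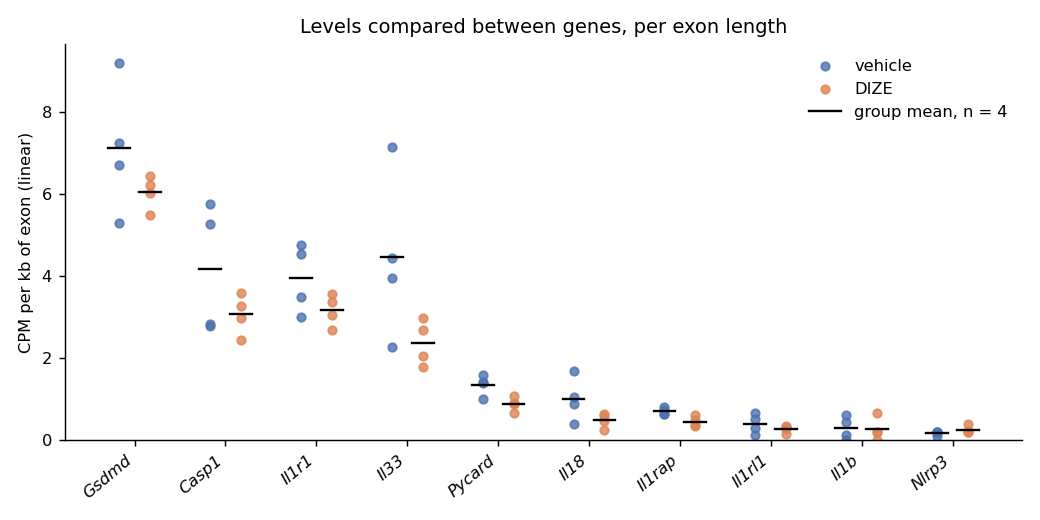
CPM per kb of exon (linear axis) for the 10 members, ordered by their mean over 8 libraries. Points are libraries, vehicle in blue and DIZE in orange, and black lines are means of 4. Gsdmd leads and Nlrp3, Il1b and Il1rl1 are lowest in both groups.

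Other sensors and partners of inflammasomes went both ways. Of 21 listed genes 15 were tested, 9 lower and 6 higher in DIZE, with 0 called. At an unadjusted p under 0.05 there were 7 lower and 1 higher, beside 10.3% and 9.11% of all tested genes. The median log2 was -0.14, or -0.01 without vehicle 1 and -0.31 without vehicle 4. The 2 smallest p-values belonged to Naip6 and Naip5, sensors of bacterial flagellin that act with NLRC4. Naip5 means were 5.28 ± 1.58 in vehicle and 2.62 ± 0.444 in DIZE, in CPM (log2 -1.02 ± 0.27 SE, edgeR adjusted p = 0.111), and Naip6 had 3.28 ± 1.73 and 1.14 ± 0.182 CPM (log2 -1.51 ± 0.39 SE, edgeR adjusted p = 0.108). Naip genes are near-identical copies, so the split of reads among them is uncertain. P2rx7, the ATP receptor whose opening triggers NLRP3, had 15.7 ± 3.70 and 9.51 ± 1.73 CPM without overlap between the groups (log2 -0.72 ± 0.20 SE, edgeR adjusted p = 0.1202). Nlrx1, a mitochondrial member of the family, lay the other way, with 19.1 ± 5.41 and 28.4 ± 3.65 CPM, also without overlap (log2 0.58 ± 0.20 SE, edgeR adjusted p = 0.170). The gap was narrow for Nlrx1, with vehicle 2 at 24.5 and DIZE 2 at 24.6 CPM. Groups did not overlap in 12.4% of all tested genes.

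Of 9 other inflammatory caspases, gasdermins and membrane rupture genes, 7 were tested, with 6 lower, 1 higher and 0 called (median log2 -0.40, or -0.23 without vehicle 4). At an unadjusted p under 0.05 there were 2 lower and 1 higher, beside 10.3% and 9.11% of all tested genes. Casp8, which links death receptors to this pathway, had means of 18.0 ± 3.27 in vehicle and 13.1 ± 1.53 in DIZE, in CPM (log2 -0.46 ± 0.16 SE, edgeR adjusted p = 0.169). Its groups did not overlap, as in 12.4% of all tested genes. Casp12 had the largest decrease of the list, at log2 -0.63 ± 0.25 SE (edgeR adjusted p = 0.208). Its highest libraries were vehicle 1 and vehicle 4, at 19.4 and 21.6 CPM. Gsdme, a gasdermin cut by caspase-3, was the 1 gene with a higher value, at log2 0.49 ± 0.22 SE (edgeR adjusted p = 0.257).

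Among 15 other ligands, receptors, decoys and antagonists of the family, 5 had enough reads, with 4 lower, 1 higher and 0 called (median log2 -0.07). Il18bp, the secreted inhibitor of interleukin-18, had 14.6 ± 4.35 and 14.1 ± 2.59 CPM (log2 -0.07 ± 0.21 SE), with 1024 reads in all against 56 for Il18. Il1rl2, the interleukin-36 receptor gene, had 6.62 ± 2.53 and 3.78 ± 1.20 CPM (log2 -0.79 ± 0.32 SE, edgeR adjusted p = 0.213). Sigirr, an inhibitory receptor, had log2 -0.19 ± 0.26 SE. The receptor antagonist Il1rn had 39 reads in all libraries and Il1a had 6, so neither was tested; both were chosen after their values were seen.

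Signalling genes below the receptors had no common direction. All 21 were tested, 12 higher and 9 lower, with 0 called (median log2 0.02). Tab1, a partner of the kinase TAK1, had means of 32.9 ± 4.72 in vehicle and 48.3 ± 9.24 in DIZE, in CPM (log2 0.56 ± 0.16 SE, edgeR adjusted p = 0.125). Chuk and Ikbkb, the kinases of the complex that frees NF-kB, had log2 -0.31 ± 0.11 and -0.28 ± 0.11 SE (edgeR adjusted p = 0.178 and 0.217). Neither had overlap between groups, as in 12.4% of all tested genes. The gap was narrow for Ikbkb, with vehicle 1 at 38.0 and DIZE 1 at 37.6 CPM. Of 14 genes responsive to interleukin-1 and NF-kB, 10 were tested, 5 higher and 5 lower, with 0 called (median log2 -0.01). Ccl2, a monocyte-attracting chemokine, had 3.30 ± 0.744 and 5.19 ± 1.32 CPM (log2 0.63 ± 0.24 SE, edgeR adjusted p = 0.198), and Socs3, a feedback inhibitor of cytokine signalling, had 5.17 ± 1.31 and 7.52 ± 1.59 CPM (log2 0.53 ± 0.23 SE, edgeR adjusted p = 0.234).

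**Figure D5:**
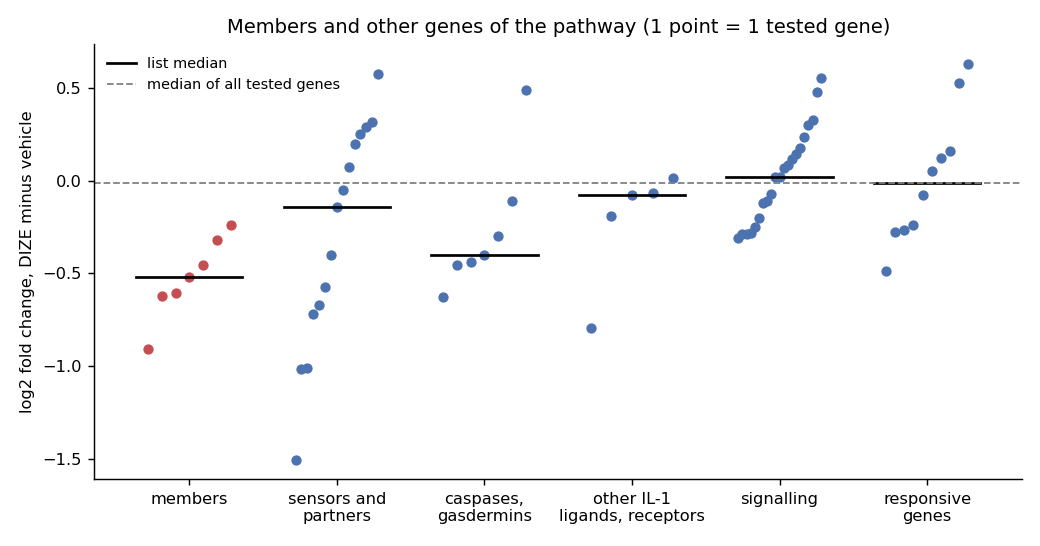
Log2 fold change of DIZE against vehicle for each tested gene of 6 lists, with list medians in black and the median of all tested genes dashed. The members (red) all lie below 0, with a median of -0.52, while signalling and responsive genes lie on both sides of 0.

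Macrophages are a usual source of inflammasome transcripts, and their markers were also lower in DIZE by fitted value. The sum of 13 macrophage markers was 785, 508, 543 and 569 CPM in vehicle 1 to 4 and 522, 529, 445 and 468 CPM in DIZE 1 to 4. Of these markers, all tested, 12 had lower values in DIZE and 0 were called (median log2 -0.40, or -0.17 without vehicle 1). At an unadjusted p under 0.05 there were 4 of these markers, all lower, beside 10.3% lower over all tested genes. With their sum as a covariate, chosen after the values were seen, log2 was -0.53 for Pycard, -0.12 for Casp1, -0.17 for Gsdmd, -0.48 for Il33, -0.08 for Il1r1, -0.11 for Il1rl1 and -0.52 for Il1rap. Neutrophil markers were scarce, with a sum over 8 genes of 3.85 to 9.24 CPM in vehicle and 4.39 to 11.5 CPM in DIZE, and Ly6g at 0 in all libraries. Blood was read from 6 erythroid markers, with 197, 111, 210 and 101 CPM in vehicle 1 to 4 and 64.0, 8.95, 30.3 and 78.5 CPM in DIZE 1 to 4, so the groups did not overlap. All 5 tested erythroid markers were lower in DIZE at an unadjusted p under 0.05, beside 10.3% of all tested genes, and 0 were called. Of 10 fibroblast and 10 endothelial markers, cells that store interleukin-33, 8 and 7 had lower values in DIZE and 0 were called (median log2 -0.21 and -0.12, or -0.05 and -0.08 without vehicle 1). At an unadjusted p under 0.05 there were 3 fibroblast markers (Ddr2, Pi16 and Mfap5) and 1 endothelial marker, all lower, beside 10.3% of all tested genes. The part of these cells in the members' values was not otherwise tested.

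Profiles over the 8 libraries were compared as the root mean square difference of standardized log2 CPM, a description in which a smaller value is more alike and all genes share the same libraries. Among pairs of tested members, Pycard and Il1rap were nearest (0.397), then Casp1 and Gsdmd (0.560), and Gsdmd and Il1rl1 were farthest (1.46). The genes nearest to Casp1 were Ifit3 (0.231) and Npnt (0.242), and those nearest to Gsdmd were Tnfsf10 (0.230) and Trim21 (0.231). Ifit3 is on the list of interferon response genes. Tnfsf10 and Trim21 are not on that list, but like Ifit3 they were highest in vehicle 4, at 62.8 and 29.7 CPM. Nearest to Il33 were Gm4332 (0.203) and Dkk3 (0.245). Nearest to Il1r1 were Hecw2 (0.139) and Zfp748 (0.232), and to Pycard Acyp1 (0.267) and Akr1c14 (0.269). For Il1rl1 they were Pkib (0.288) and Cacnb4 (0.309), and for Il1rap Cib3 (0.300) and Iqgap3 (0.303).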

How the data were processed

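Heart RNA of db/db mice was sequenced after poly(A) selection with a stranded kit, as read pairs, per the labels' protocols. The authors deposited raw read counts per Ensembl gene for 8 libraries, with no normalization. The build mm10, R 4.1, edgeR, HTSeq 0.6.1p1 and STAR 2.7.3 are listed, without role or setting, per the submitters' processing notes. The annotation release and strand setting were not given in the sources used here. Symbols were matched for 55141 genes and not for 346. Positions and lengths came from GENCODE on GRCm38, the same assembly, and promoters from RefSeq on GRCm38.p6. Genes overlapping a member had a mean of at most 0.185 CPM.

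Groups followed the treatment label, and libraries were numbered in accession order. DIZE was compared with vehicle by edgeR 4.0.16 (quasi-likelihood, robust, TMM, two-sided, no covariate) in R 4.3.3. Genes were kept by filterByExpr (minimum count 10, total 15), and Benjamini-Hochberg p-values over all tested genes had a threshold of 0.05. Members below the filter were compared by an exact permutation test over 70 splits. No libraries agreed within sampling noise (lowest chi-square per degree of freedom 5.54). The fit was tested on simulated data with known changes.

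Alternatives were DESeq2 1.42.0, limma-voom (limma 3.58.1) with library weights, other scalings and filters, blocks, title forms taken alone (titles with or without the letters db), GC and length correction, and each library left out. Covariates from marker sums and leaving out vehicle 1 and vehicle 4 together were added after the data were seen. All members may be named, with up to 4 genes of smallest unadjusted p per list and the 2 nearest profiles per tested member. Members and lists were chosen with earlier results of these data known.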

Additional observations from a re-analysis of the deposited data

Results flagged for a closer look

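Nlrp3 in vehicle 2, at 0.385 CPM, lay far from the other 3 vehicle libraries, which were at 0.785 to 0.821 CPM. This was 1 of 20 sets of 4 libraries looked at (10 members in 2 groups), and chance alone sets apart about 1 in 20 groups. It rests on 3 reads in vehicle 2 against 6 to 8 in the others.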

How the results depend on the processing

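No tested member passed the threshold with all 8 libraries or under any of 23 alternatives. Of 161 member values under an alternative, 157 were lower in DIZE and 4 higher. The 4 were Casp1 (0.13) and Gsdmd (0.012) without both vehicle 1 and vehicle 4, and Il1rl1 by limma-voom (0.28) and in the libraries without db in the title (0.14). With the GC and length trend removed, log2 was -0.55 for Pycard, -0.19 for Casp1, -0.31 for Gsdmd and -0.74 for Il33. In that fit it was -0.18 for Il1r1, -0.37 for Il1rl1 and -0.49 for Il1rap. The members' median was then -0.37, beside 0.02 over all tested genes. Of the scarce members, the difference of Il1b turned to 0.0293 CPM without vehicle 1, 0.148 without vehicle 4 and 0.113 without DIZE 3, over a range of -0.310 to 0.148. Il18 passed unadjusted without vehicle 3 (-0.741 CPM, range -0.741 to -0.294), the only vehicle library within its DIZE range. Nlrp3 ranged from 0.138 to 0.407. Library totals in place of TMM moved the median of all tested genes from -0.01 to -0.08.

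The count of genes called over the whole table, 5, was 606 by DESeq2, 561 by limma-voom and 386 without a filter. It was 1349 in the libraries without db in the title (vehicle 3, vehicle 4, DIZE 3 and DIZE 4 alone). With the GC and length trend removed it was 13, and with title form as a block 9. It was 0 with library totals, in the libraries with db in the title, without both vehicle 1 and vehicle 4, and with each of the 3 covariates. Leaving out 1 library gave 0 to 240, with 240 without vehicle 2, 9 without vehicle 1, 1 without vehicle 3 and 0 without vehicle 4 or any DIZE library. The cause was not tested. With the title number as a replicate block the count was 0, and members kept values below 0 (Il33 -0.87, Casp1 -0.09). Deviations of same-numbered libraries from their group means had correlations of -0.08 and -0.10 for numbers 1 and 4. For number 4, libraries of both title forms were averaged, so a pairing within a title form was not tested. The labels state no pairing, so the main fit used none. Depth limits Nlrp3, Il1b and Il18, with 41 to 61 reads each.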
